A study of Mus musculus with 12 samples.

Results

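Across all genes, mdx and wild-type (WT) mice were compared in the tibialis anterior, the shin muscle that lifts the foot and is built mainly of fast fibres. The comparison uses 8 of the 12 RNA sequencing libraries of the series, 4 of mdx and 4 of WT muscle, chosen by the genotype in their labels. Mice of both genotypes were 6 months old and had received no treatment. The mdx mouse carries a mutation in Dmd, the gene of dystrophin, and is the usual model of Duchenne muscular dystrophy. The labels give neither the strain, the sex nor the allele, and they number the libraries within a genotype without saying that each came from its own animal. The other 4 libraries of the series, of DMD-Null muscle at 6 months, enter the model and the filter on low values. The p-values below therefore measure the spread between libraries, those of DMD-Null included. Poly(A) RNA was sequenced, so each value is a level of polyadenylated transcript in whole muscle, with its fibres, connective tissue, vessels, nerves and blood cells together.

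Dystrophin ties the actin cytoskeleton of the muscle fibre to the laminin of its basement membrane. Fibres that lack it tear when they contract, die in part and are rebuilt by satellite cells, so that an mdx muscle holds damaged, regenerating and repaired fibres beside a stroma that macrophages and fibroblasts have entered. A regenerating fibre passes again through a developmental stage, in which embryonic myosins, cardiac isoforms of actin and troponin and the embryonic acetylcholine receptor are made.

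Over all genes tested 15.0% rose in mdx and 20.1% fell, and the counts here are to be read against those shares. In mdx muscle 6 of 15 tested embryonic, slow and cardiac isoforms of the contractile apparatus rose, among them Myl4, Myh3, Tnnt2 and Actc1, and 2 fell. The receptor genes Chrng and Chrna1 also rose, as did 7 of 12 tubulins, 23 of 32 lysosomal genes, the annexins Anxa1, Anxa2, Anxa4, Anxa5 and Anxa7 and the matrix genes Postn, Lum and Mmp12. Of 32 genes of the Z-disc and M-band 19 fell, 10 of them also without WT 1 and WT 3. The lipid droplet gene Plin5, the small heat shock protein Hspb6 and Mrpl12 of the mitochondrial ribosome fell too. Of 2292 falls over all genes, 1397 were not called without WT 1 and WT 3, so log2 fold changes are given with all libraries and with WT 1 and WT 3 left out.

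WT 1 and WT 3 stood apart from WT 2 and WT 4. Genes of the mitochondrial genome took 4.96%, 19.3%, 6.57% and 13.5% of the counts in WT 1 to 4. In mdx 1 to 4 they took 11.3%, 10.7%, 10.4% and 14.1%. Total counts were 61145904 to 63073041 in WT and 64120795 to 68054627 in mdx, so depth was alike. The scaling factors of the CPM values below were not. They were 0.694, 0.951, 0.698 and 0.952 in WT 1 to 4 and 1.0899, 1.0804, 1.131 and 1.126 in mdx 1 to 4. Counts are divided by these factors, so scaling raised WT values relative to mdx, most in WT 1 and WT 3. Across genes, Spearman's rho between GC content and the log2 level in a library relative to the 12-library average was 0.662 in WT 1 and 0.611 in WT 3, against -0.481 in WT 2, -0.0840 in WT 4 and -0.532 to -0.301 in mdx. The median coefficient of variation of CPM (counts scaled to a common library size by the trimmed mean of M-values, TMM) over the tested genes was 33.0% among the 4 WT libraries, but 9.47% between WT 1 and WT 3, 12.3% between WT 2 and WT 4 and 9.84% among the 4 mdx libraries. Genes that define fast muscle, such as Acta1, Ckm, Myh4 and Pvalb, took 29.2%, 12.4%, 26.4% and 17.4% of the counts in WT 1 to 4 and 15.2%, 16.8%, 15.0% and 13.2% in mdx 1 to 4, so that all 8 libraries carried the marks of the labelled tissue. Transcripts typical of liver differed too. Summed over 41 liver genes, unscaled CPM were 1278, 1186, 1272 and 1148 in WT 1 to 4 and 228, 287, 380 and 359 in mdx 1 to 4. Transcripts typical of lung had the opposite order. Their unscaled sums over 15 genes were 10.02, 5.87, 6.49 and 6.03 CPM in WT and 21.7, 21.5, 25.1 and 22.5 in mdx. The defining lung gene Sftpc stood at 0.0913, 0.0688, 0 and 0.151 TMM-scaled CPM in WT 1 to 4 and 4.00, 3.72, 4.70 and 3.94 in mdx 1 to 4. The part of these transcripts in the results below was not tested.

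Dmd itself (ENSMUSG00000045103, chromosome X from 82948870 to 85206141) had 542, 3597, 412 and 2446 counts in WT 1 to 4 and 1062, 713, 869 and 1254 in mdx 1 to 4. As TMM-scaled CPM these were 12.4, 61.8, 9.51 and 41.0 in WT and 14.3, 10.3, 11.7 and 17.3 in mdx. WT 2 and WT 4 lay above every mdx library, whereas WT 1 and WT 3 lay within or below the mdx range, so this gene did not set the genotypes apart in those libraries. Its GC content was 41.5%, against a median of 50.5% over all genes tested, and the part of the GC trend here was not tested. Dmd was under the filter on low values. Fitted without it, the log2 fold change of mdx over WT was -1.20 (SE 0.50, edgeR adjusted p = 0.137), which did not pass. It was -1.96 with WT 1 and WT 3 left out (edgeR adjusted p = 0.00179) and 0.37 with WT 2 and WT 4 left out (edgeR adjusted p = 0.406). In DESeq2 it passed with all libraries, at -1.23 (DESeq2 adjusted p = 0.0399).

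Of 11376 genes tested, 4001 (35.2%) were called, 1709 higher (15.0%) and 2292 lower (20.1%), at an adjusted p of 0.05 in edgeR's quasi-likelihood test. With the DMD-Null libraries left out of the model 2268 were called, 1123 higher and 1145 lower. Scaled by library totals alone the split was 3350 higher and 707 lower. With WT 1 and WT 3 left out, 2649 were called, 1408 higher and 1241 lower. Calls made in the same direction in both fits are said below to have held. They numbered 1943 (17.1%), with 1048 higher (9.21%) and 895 lower (7.87%). Thus 661 of the 1709 higher calls and 1397 of the 2292 lower calls were not called without WT 1 and WT 3, and a further 706 genes were called only in their absence. The estimate changed sign between the fits in 2808 genes, of which 5 were called with all libraries, each of them lower and each close to 0 without WT 1 and WT 3, and 108 were called without WT 1 and WT 3. A stricter count, calls in the same direction also with WT 2 and WT 4 left out and with GC-corrected offsets, came to 917 higher (8.06%) and 802 lower (7.05%). Leaving out single libraries gave 6874 calls without WT 2, 2342 without WT 3, 2355 without mdx 1, 2447 without mdx 3 and 2300 without mdx 4, and 2695 to 4494 without each of the others. All 4 mdx libraries lay above all 4 WT libraries in 1812 genes (15.9%) and below them in 1686 (14.8%).

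Lower calls had a median GC content of 54.2% and held lower calls 53.0%, against 50.5% over all genes tested, while higher calls had 48.6% and held higher calls 50.01%. Held higher genes started from a median of 6.64 CPM in WT and stood at 16.5 in mdx, and held lower genes went from 48.6 to 24.97 CPM. Among held calls 694 of the higher genes and 455 of the lower changed at least 2-fold. The median log2 fold change over all genes tested was 0.0028, and -0.020 with WT 1 and WT 3 left out. Scaled by library totals alone it was 0.42, so changes are given relative to TMM scaling, and a list whose median changed sign under library totals is said to have done so.

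**Figure D1:**
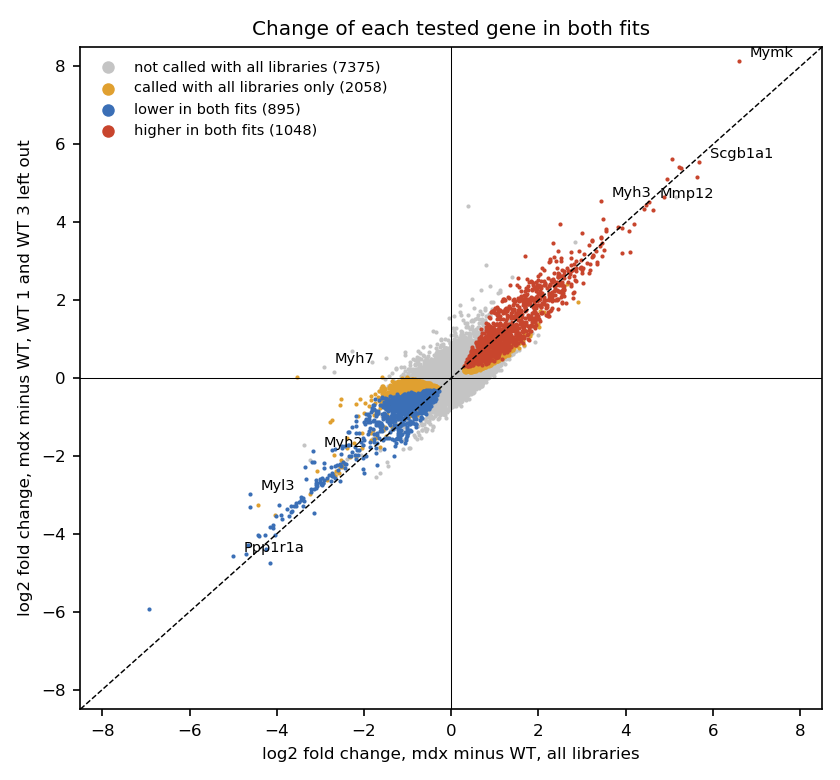
Log2 fold change of mdx over WT for each tested gene with all libraries (horizontal axis) and with WT 1 and WT 3 left out (vertical axis). Red points are the 1048 genes higher in both fits and blue points the 895 lower in both; orange points are the 2058 genes called with all libraries only, of which 1397 were lower in mdx, the dashed line marks equal change, and 6 genes lie outside the axes.

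In what follows, the number in brackets after a log2 fold change is the value with WT 1 and WT 3 left out. Counts of list members are to be read against the shares above. A gene that reached the filter only through the libraries in which it was high had to differ between the groups. Of the 11376 genes tested, 1849 averaged under 1 FPKM in WT, and 723 of these rose and 8 fell. Where a list holds many such members their number is given, and its counts are a description only.

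Contractile proteins come in developmental and fibre-type isoforms, each from its own gene. Of the 19 embryonic, slow and cardiac isoforms listed, 15 were tested, 6 rose, all of them held, and 2 fell, of which 1 held. Falls numbered 4 without WT 2 or WT 4 and 1 without WT 1, WT 3, mdx 1, mdx 3 or mdx 4. In whole muscle, fewer cells of a type and less RNA per cell cannot be told apart, here and below. Myl4, the atrial and embryonic essential light chain of myosin (ENSMUSG00000061086, chromosome 11 from 104550663 to 104595753), stood at 10.8, 5.33, 12.4 and 5.81 CPM in WT 1 to 4 and 105, 117, 61.5 and 100.1 in mdx 1 to 4. The lowest mdx library, mdx 3, was well above the highest WT library, and the log2 fold change was 3.49 (edgeR adjusted p = 3.98e-05, SE 0.32). Myh3, the embryonic myosin heavy chain, stood at 14.6, 3.28, 14.5 and 5.17 CPM in WT and 95.0, 104, 85.2 and 119 in mdx. In both genes WT 1 and WT 3 were above WT 2 and WT 4, so the log2 fold changes grew when they were left out, to 4.08 for Myl4 and from 3.43 to 4.54 for Myh3. The same order among WT libraries held for cardiac troponin T (Tnnt2), with 9.25, 5.12, 12.3 and 3.73 CPM in WT and 40.5, 39.4, 24.8 and 40.9 in mdx. Its log2 fold change was 2.27 (3.02). Cardiac actin, Actc1, stood at 105, 72.8, 185 and 68.6 CPM in WT and 746, 577, 493 and 636 in mdx, with a log2 fold change of 2.51 (3.09). Slow troponin I (Tnni1) and myosin-binding protein H (Mybph) rose by 2.50 (3.95) and 1.41 (1.99).

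Myl3, the slow and ventricular light chain, fell by 4.61 on the log2 scale (-2.98), from 298, 62.6, 179 and 27.5 CPM in WT to 4.97, 9.02, 4.16 and 5.001 in mdx, with no overlap. Myh7, the slow myosin heavy chain, stood at 171, 4.57, 19.5 and 6.20 CPM in WT and 3.65, 16.9, 2.53 and 3.34 in mdx, where WT 1 was far above every other library and mdx 2 was the highest of mdx. Its log2 fold change of -2.92 did not pass (edgeR adjusted p = 0.0668) and became 0.27 when WT 1 and WT 3 were dropped (edgeR adjusted p = 0.857). Tnnt1, Tnnc1 and Myl6b, slow isoforms of troponin T, troponin C and a light chain, had changes of 0.068, 0.47 and 0.38 that did not pass. They did pass with WT 1 and WT 3 left out, at 1.60, 2.02 and 1.62 (edgeR adjusted p = 0.00564, 0.000137 and 0.000953). The median over the tested members was 0.38 with all libraries, 1.62 without WT 1 and WT 3 and -0.27 without WT 2 and WT 4.

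No rise passed among the 14 adult fast isoforms. With all libraries 9 fell, and 1 of these falls held, that of Myh2, the IIa myosin of oxidative fast fibres. The count of falls was 1 without WT 1, WT 3 or mdx 3 and 2 without mdx 1 or mdx 4. Myh2 (ENSMUSG00000033196, chromosome 11 from 67171027 to 67197517) stood at 4880.1, 813, 3169.6 and 1184 CPM in WT 1 to 4 and 319, 271, 255 and 271 in mdx 1 to 4, a log2 fold change of -3.16 (edgeR adjusted p = 0.00303, SE 0.60) and -1.87 without WT 1 and WT 3. Every WT library was above every mdx library, by the least in WT 2. Myh4, the IIb myosin and the main one of this muscle, stood at 88300.1, 21218, 62732 and 42397 CPM in WT and 20504, 30409.5, 20344 and 16516 in mdx, so that WT 2 lay inside the mdx range. Its change of -1.28 passed with all libraries, and the -0.57 without WT 1 and WT 3 did not. Fast troponin T, Tnnt3, behaved likewise, with -1.098 (-0.27) and 33113, 11179.5, 32589.8 and 13908 CPM in WT against 10754, 11604, 10938 and 8959 in mdx. The median of the list was -0.98 and -0.27 in the fits with and without WT 1 and WT 3.

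**Figure D2:**
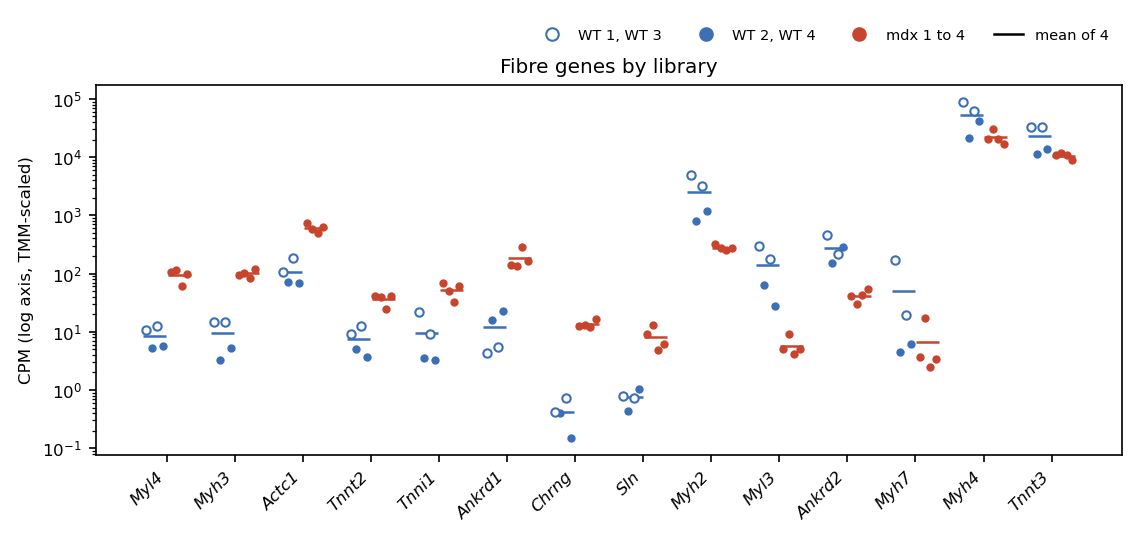
TMM-scaled CPM (log axis) of 14 fibre genes in each library, with open blue points for WT 1 and WT 3, filled blue points for WT 2 and WT 4, red points for mdx 1 to 4 and bars for the mean of 4. From Myl4 to Sln the mdx points lie above all WT points and from Myh2 to Ankrd2 below them, whereas in Myh7, Myh4 and Tnnt3 the groups overlap.

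A ratio of 2 genes within a library does not depend on how libraries are scaled. Pairs of isoforms were compared in this way by their FPKM (fragments scaled by transcript length and library size, as deposited), with no test. The ratio of embryonic to adult fast myosin, Myh3 to Myh4, was 0.000164, 0.000153, 0.000230 and 0.000121 in WT 1 to 4 and 0.00460, 0.00340, 0.00416 and 0.00715 in mdx 1 to 4. Its mean was 28.9 times higher in mdx (35.2 times without WT 1 and WT 3). WT 1 and WT 3 were the highest of the WT libraries, and all WT libraries lay far below all mdx libraries. The bracketed folds below are likewise those without WT 1 and WT 3. Cardiac to skeletal actin, Actc1 to Acta1, was 0.00147, 0.00260, 0.00265 and 0.00214 in WT and 0.0241, 0.0197, 0.0162 and 0.0238 in mdx, 9.45 (8.83) times higher, so cardiac actin stayed a small share of all sarcomeric actin. Cardiac to fast troponin T (Tnnt2 to Tnnt3) was 10.2 (9.77) times higher in mdx and slow to fast troponin I (Tnni1 to Tnni2) 13.5 (19.1) times. For the acetylcholine receptor of the junction, whose embryonic subunit Chrng is replaced by Chrne in adult muscle, the ratio was 0.00561, 0.0153, 0.0114 and 0.00651 in WT and 0.284, 0.293, 0.381 and 0.501 in mdx, 37.5 (33.4) times higher. The ratio of sarcolipin to the calcium pump it inhibits (Sln to Atp2a1) was 16.96 (12.1) times higher, and 28.3 times with WT 2 and WT 4 left out.

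Of the 13 ratios computed, 12 had all 4 mdx libraries above all 4 WT libraries. Many of the pairs set a gene that rose over one that fell or did not pass. The count therefore describes the chosen pairs only. The exception was Myh1 to Myh4, the IIx to the IIb myosin, at 0.400, 0.378, 0.547 and 0.301 in WT and 0.397, 0.204, 0.325 and 0.487 in mdx, where the groups overlapped. Vimentin to desmin (Vim to Des), the filament of mesenchymal and young muscle cells against that of mature fibres, was 0.00901, 0.0489, 0.0103 and 0.0265 in WT and 0.0966, 0.0994, 0.0962 and 0.0975 in mdx, 4.11 times higher. That fold rested on which WT libraries were used, at 2.58 without WT 1 and WT 3 and 10.1 without WT 2 and WT 4. Collagen III to collagen I (Col3a1 to Col1a1) was 2.42 times higher (1.64, and 4.64 without WT 2 and WT 4), with 0.348, 1.18, 0.388 and 0.906 in WT and 1.75, 1.53, 1.73 and 1.82 in mdx, so that WT 2 came closest to mdx. Fibrillar to basement membrane collagen (Col1a1 to Col4a1) was 2.29 (2.43) times higher. Brain to muscle creatine kinase (Ckb to Ckm), ryanodine receptor 3 to 1 (Ryr3 to Ryr1) and pyruvate kinase to muscle phosphofructokinase (Pkm to Pfkm) were 1.83 (1.46), 2.54 (2.17) and 1.18 (1.25) times higher.

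**Figure D3:**
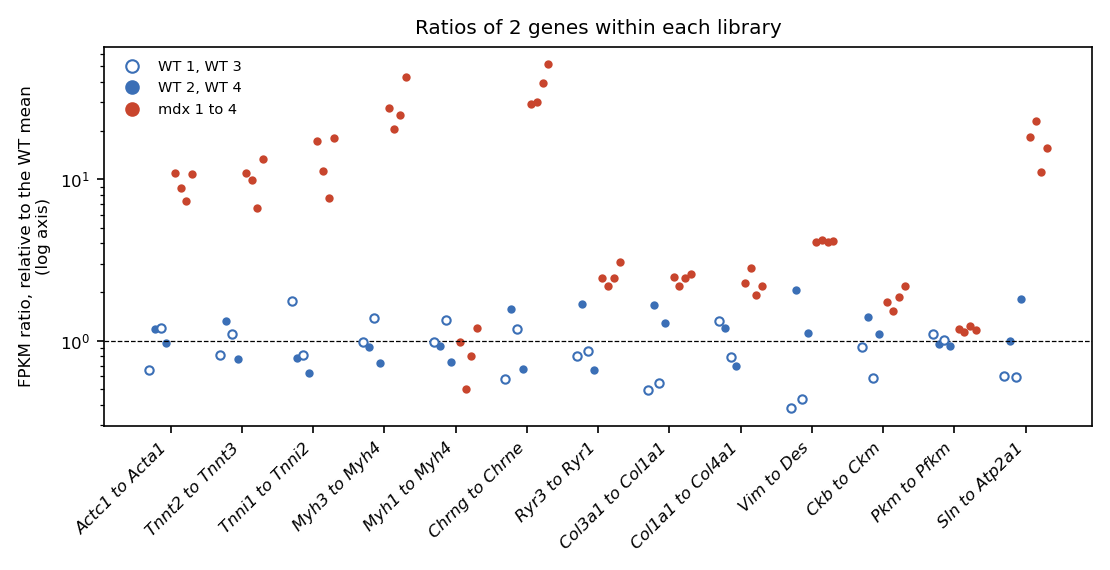
Ratio of the FPKM of 2 genes within each library, divided by the mean ratio of the 4 WT libraries (log axis; the dashed line is that mean), with open blue points for WT 1 and WT 3, filled blue points for WT 2 and WT 4 and red points for mdx 1 to 4. The mdx points lie above all WT points in 12 of the 13 ratios, from 1.18 times the WT mean for Pkm to Pfkm to 37.5 times for Chrng to Chrne, and overlap with WT in Myh1 to Myh4. Many pairs have a gene that rose as numerator, so that count describes the chosen pairs only.

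The Z-disc anchors the actin filaments of the sarcomere and the M-band its myosin filaments. Of 32 genes of these structures, 19 fell and 3 rose. Of these calls, 10 falls and 2 rises held, and 11 fell without mdx 4. Related ankyrin repeat proteins of the sarcomere moved in opposite directions. Ankrd1 (ENSMUSG00000024803, chromosome 19 from 36111961 to 36119910) stood at 4.34, 15.8, 5.45 and 22.7 CPM in WT 1 to 4 and 139, 137, 290.3 and 161 in mdx 1 to 4, with mdx 3 far above the other mdx libraries and no overlap with WT. Its log2 fold change was 3.91 (edgeR adjusted p = 0.00052, SE 0.56) and it was 3.21 without WT 1 and WT 3. Ankrd2 stood at 456, 153, 219.8 and 289 CPM in WT and 41.0, 30.2, 42.6 and 53.9 in mdx, a log2 fold change of -2.73 (-2.43), and a further member, Ankrd23, at -0.46 (-0.47). The stretch-responsive LIM protein gene Csrp3 fell, at -2.02 (-2.05) with 149, 70.7, 69.7 and 145 CPM in WT and 27.6, 18.001, 26.0 and 34.9 in mdx. Filamin C (Flnc), which gathers at damaged Z-discs, had -1.60 (-1.27), nebulin-related Nrap -1.71 (-0.84) and the Z-disc protein Ldb3 -0.85 (-0.74). The giant titin and nebulin genes, Ttn and Neb, did not pass, at -0.69 (-0.68) and 0.067 (-0.37). Telethonin (Tcap) fell with all libraries, at -1.17, and did not pass without WT 1 and WT 3, at -0.17. Lmod2, which nucleates sarcomeric actin, rose by 0.99 (0.70).

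Tubulins form the microtubules of the cytoskeleton. All 12 tubulin genes listed were tested; 7 rose, all held, and 3 fell, of which 1 held. Microtubules are denser and less ordered in dystrophic fibres, and Tubb6 is a beta tubulin of regenerating fibres. Tubb6 stood at 48.9, 25.5, 53.5 and 29.3 CPM in WT 1 to 4 and 108, 90.3, 135 and 132 in mdx 1 to 4, all mdx libraries above all WT libraries, with a log2 fold change of 1.57 (edgeR adjusted p = 0.00147, SE 0.27) and 2.06 without WT 1 and WT 3. Tuba1b rose by 1.29 (1.39), with 63.1, 58.4, 62.0 and 46.7 CPM in WT and 129, 129.6, 167 and 134 in mdx, where mdx 3 was highest. Tubb2b, Tuba1a, Tuba1c, Tubb5 and Tubb2a rose by 0.62 to 1.03. The striated muscle isotype Tuba8 went the other way, at 311, 240.2, 361 and 279 CPM in WT and 126, 134, 158 and 109 in mdx, a log2 fold change of -1.17 (-0.9998). The alpha tubulin genes share long stretches of sequence, so that reads may have been split between them.

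Of 14 genes of intermediate filaments and their linkers, 4 rose and 2 fell, and 2 rises and 0 falls held. Without WT 3, mdx 1 or mdx 4 the rises numbered 1 and without mdx 3 they numbered 2, while the falls numbered 1 without each single library but WT 2 and WT 4. Vim, the filament protein of mesenchymal cells and of young muscle cells, stood at 114, 186, 114 and 122 CPM in WT and 481, 489.7, 488 and 437 in mdx, a log2 fold change of 1.83 (edgeR adjusted p = 7.71e-05, SE 0.19) and 1.60 without WT 1 and WT 3. Syncoilin (Sync), a filament partner of dystrobrevin, had 1.77 (0.99), and its call ended without WT 3 (1.45) and in 3 fits that left out mdx 1, mdx 3 or mdx 4. Desmin did not pass, at -0.71 (0.18). Nestin (Nes), a filament of immature fibres, and lamin A (Lmna) were near 0 with all libraries, at -0.13 and 0.19. They passed only with WT 1 and WT 3 left out, at 1.01 and 0.97 (edgeR adjusted p = 0.0171 and 0.00178).

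Regulators of the actin that moves cells and shapes membranes rose in 18 of 31 cases and fell in 1, and all of these calls held; 3 fell without WT 2. L-plastin (Lcp1), an actin bundler of leukocytes, stood at 8.72, 11.5, 7.13 and 5.59 CPM in WT and 43.5, 39.6, 61.8 and 46.6 in mdx, with no overlap and a log2 fold change of 2.54 (2.46), edgeR adjusted p = 0.000128, SE 0.29. Pleckstrin (Plek), also of blood cells, rose by 2.44 (2.25) and coronin (Coro1a) by 1.47 (1.99). Genes that most cells use rose too, with 0.83 (0.83) for thymosin beta 4 (Tmsb4x), 0.81 (0.86) for cofilin (Cfl1), 1.03 (1.201) for the Arp2/3 subunit Arpc1b and 0.68 (0.69) for beta actin. Thymosin beta 10, Tmsb10, rose by 1.78 (2.47). The member that fell was Myl9, a myosin light chain of smooth muscle, at -1.44 (-0.69).

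Annexins bind to torn membrane in the presence of calcium and, with dysferlin, help to reseal it. Of 29 genes of membrane repair and caveolae, 10 rose, all held, and none fell; without WT 2, 4 fell, and without WT 4, 1. Anxa1 stood at 9.43, 17.8, 8.82 and 10.8 CPM in WT 1 to 4 and 53.7, 51.2, 65.6 and 61.2 in mdx 1 to 4, a log2 fold change of 2.31 (1.997), edgeR adjusted p = 7.83e-05, SE 0.24, and no library of one group reached the other. Anxa4 rose by 2.09 (1.70), Anxa2 by 1.53 (1.68), its partner S100a10 by 1.22 (1.22), Anxa5 by 1.53 (1.49) and Anxa7 by 1.29 (0.94). Myoferlin (Myof), the ferlin of fusing myoblasts, rose by 1.64 (1.44), while its adult relative Dysf did not pass, at -0.60 (-0.013). The caveolin of muscle, Cav3, did not pass either, at -0.28 (0.19). The long scaffold Ahnak rose by 0.83 (0.71).

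Calcium for contraction is released through Ryr1 and pumped back by Atp2a1, which small membrane peptides inhibit. Of 33 tested genes, 4 rose, of which 3 held, and 9 fell, of which 2 held. Without WT 2 the rises numbered 9, and the falls numbered 4 without WT 3, mdx 1 or mdx 4 and 5 without WT 1 or mdx 3. The median of -0.19 (-0.042) changed sign to 0.25 under library totals. Sln, the gene of sarcolipin (ENSMUSG00000042045, chromosome 9 from 53850164 to 53854560), stood at 0.799, 0.430, 0.739 and 1.02 CPM in WT 1 to 4 and 9.17, 12.9, 4.85 and 6.12 in mdx 1 to 4. Its log2 fold change was 3.47 (edgeR adjusted p = 6.80e-05, SE 0.35) and the same without WT 1 and WT 3, 3.47. The lowest mdx library was well above the highest WT library, at levels that were low in both groups. Atp2a2, the slow and cardiac pump, rose by 0.93 (0.93) with 71.6, 57.7, 46.8 and 55.8 CPM in WT and 120.3, 107, 97.0 and 115 in mdx, whereas the fast pump Atp2a1 did not pass, at -0.89 (-0.076). Stac3, which tunes the voltage sensor, and sarcalumenin (Srl) fell in both fits, at -0.74 (-0.55) and -0.37 (-0.36). The falls of Ryr1 and of the voltage sensor Cacna1s, -1.40 and -1.25, passed with all libraries but not without WT 1 and WT 3, at -0.67 and -0.43.

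Among 26 tested sodium, potassium and chloride channel genes and their partners, 7 rose and 6 fell, and 4 and 3 of these held. The rises numbered 3 without mdx 3 and 4 without mdx 4. Kcnn3, a calcium-activated potassium channel that is expressed in muscle without innervation, stood at 4.9996, 3.54, 2.01 and 3.89 CPM in WT and 13.1, 12.8, 13.3 and 15.2 in mdx, a log2 fold change of 1.92 (1.85), edgeR adjusted p = 0.000362, SE 0.26. The tandem-pore potassium channel Kcnk5 rose by 1.73 (2.55), and Kcnn4, a potassium channel also of leukocytes, by 1.24 (2.01). The adult sodium channel Scn4a and the chloride channel Clcn1, which set the excitability of the fibre, fell, at -0.79 (-0.59) and -0.59 (-0.54). Of the transporters, of which 20 were tested, 4 rose and 4 fell, and 1 and 2 held. Rises numbered 1 without WT 3 or mdx 3 and 2 without each of the other libraries but WT 2 and WT 4. The lactate exporter Slc16a3 fell from 888 ± 279 to 351 ± 32.4 CPM (SD, n = 4), with -1.33 (-0.92), and the zinc transporter Slc30a2 at -1.15 (-1.32).

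The acetylcholine receptor and its partners lie under the nerve ending, and their genes spread along the whole fibre in development and after loss of the nerve. Of 23 genes of the junction and its nuclei, 10 rose, of which 8 held, and 1 fell, which did not hold; 9 of those tested averaged under 1 FPKM in WT, and 6 of these rose. The fall, of Rapsn, was absent without each single library but WT 2 and WT 4, and 2 fell without WT 2. Chrng stood at 0.411, 0.395, 0.716 and 0.151 CPM in WT 1 to 4 and 12.8, 13.2, 12.2 and 16.6 in mdx 1 to 4, a log2 fold change of 5.06 (edgeR adjusted p = 2.79e-05, SE 0.43) and 5.62 without WT 1 and WT 3. Chrna1, the ligand-binding alpha subunit of both embryonic and adult receptors, stood at 9.79, 14.0, 11.1 and 9.13 CPM in WT and 84.1, 73.9, 73.0 and 85.8 in mdx and rose by 2.85 (2.76). In both genes the mdx libraries were several times above every WT library. Chrnb1 rose by 0.93 (0.61), and the delta subunit Chrnd passed only without WT 1 and WT 3, at 0.93 (1.76). Gadd45a and Ncam1, both known to rise in denervated muscle, rose by 1.81 (1.34) and 1.61 (2.07), and the regulatory kinase subunit Prkar1a, found at the junction, by 1.16 (0.80).

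Promoters of the fibre genes that rose were searched for CAGCTG, an E-box letter pattern that myogenic factors such as Myog bind and that reads the same on both strands. The window was the 250 bases before the transcription start in RefSeq's annotation of GRCm38.p6. Of the 14 embryonic contractile and junction genes that held as higher, 13 had a window and 6 of these (46.2%) held CAGCTG, against 14.7% of all gene symbols. They were Chrna1, Chrng, Mybph, Prkar1a, Tnni1 and Tnnt2. No window of the 13 held GAGGAAGT, the pattern used for macrophage genes below, a motif of other letters. A match is a description of the letters and not of a bound site. The windows of Chrng, with matches starting 155 and 132 bases before the start, of Chrna1, with matches at 92 and 44, and of Mybph, with 1 at 79, are shown as 3 examples of the 6. They lie at chr1:87205561-87205810 (plus strand), chr2:73580339-73580588 (minus strand) and chr1:134193198-134193447 (plus strand), and capitals mark CAGCTG.
Chrng: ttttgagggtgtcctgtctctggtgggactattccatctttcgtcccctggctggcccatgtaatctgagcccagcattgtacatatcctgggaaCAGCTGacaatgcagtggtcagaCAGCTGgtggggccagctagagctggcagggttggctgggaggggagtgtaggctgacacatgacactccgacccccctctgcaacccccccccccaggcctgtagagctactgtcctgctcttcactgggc
Chrna1: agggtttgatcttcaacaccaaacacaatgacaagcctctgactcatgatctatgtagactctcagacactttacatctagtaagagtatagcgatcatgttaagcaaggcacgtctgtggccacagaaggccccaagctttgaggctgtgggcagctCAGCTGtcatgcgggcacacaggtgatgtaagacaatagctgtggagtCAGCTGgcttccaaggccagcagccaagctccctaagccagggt
Mybph: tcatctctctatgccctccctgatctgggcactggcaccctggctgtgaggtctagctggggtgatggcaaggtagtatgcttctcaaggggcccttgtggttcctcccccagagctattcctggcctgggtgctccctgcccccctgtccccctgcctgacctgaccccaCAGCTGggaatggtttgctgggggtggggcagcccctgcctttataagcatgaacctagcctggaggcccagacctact

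Myogenic and other transcription regulators stand above these genes. Of 44 listed, 36 were tested, 10 rose and 5 fell, and 9 and 4 held. Rises numbered 16 without WT 2, and falls 3 without mdx 1, mdx 2 or mdx 4. Myog, which drives differentiation of myoblasts, stood at 1.32, 2.53, 1.80 and 1.79 CPM in WT 1 to 4 and 29.6, 28.9, 32.8 and 44.4 in mdx 1 to 4, a log2 fold change of 4.19 (3.95), edgeR adjusted p = 9.13e-06, SE 0.29. Runx1, induced in muscle by loss of the nerve, stood at 2.10, 3.44, 1.38 and 0.871 CPM in WT and 14.0, 13.2, 22.7 and 17.1 in mdx and rose by 3.11 (2.94). The groups were far apart in both genes. Myod1, which commits cells to the muscle fate, rose by 1.12 (1.42), Sox9 and Sox4 by 1.87 (2.06) and 1.66 (1.25), and the TEAD cofactor Vgll3 by 2.21 (1.62). Its relative Vgll2 fell, at -0.97 (-0.58), as did the homeobox gene Barx2, at -1.87 (-1.77). Pitx3 had -1.45 with all libraries and did not hold, at -0.67 (edgeR adjusted p = 0.0814).

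Of 18 tested imprinted genes, which as a group are active in fetal growth, 11 rose, 8 of them held, and none fell, though 1 fell without WT 2 and 2 without WT 4. Igf2, the fetal insulin-like growth factor, stood at 27.2, 18.3, 21.1 and 18.8 CPM in WT and 179, 106, 86.7 and 166 in mdx. Its neighbour on chromosome 7, the long noncoding RNA H19, stood at 282, 268, 431 and 235 CPM in WT and 1291, 854, 778 and 1293 in mdx. In both genes mdx 1 and mdx 4 were higher than mdx 2 and mdx 3, and all were above WT, with log2 fold changes of 2.66 (2.83), edgeR adjusted p = 3.62e-05, SE 0.24 and 1.80 (2.04). Mest, a further fetal gene, rose by 2.58 (2.57) with 20.1, 9.20, 12.5 and 23.6 CPM in mdx 1 to 4, again highest in mdx 1 and mdx 4, and Peg3 by 2.57 (2.26). Grb10 and the cell cycle inhibitor Cdkn1c rose by 1.26 (1.02) and 1.198 (1.03). Meg3, an imprinted noncoding RNA, did not pass, at -0.61 (-0.23).

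Secreted growth factors rose in 11 of 24 tested cases, 7 held, and fell in 1, which held; 3 fell without WT 2. Bmp5 stood at 2.63, 10.8, 2.82 and 6.16 CPM in WT and 25.5, 18.3, 17.2 and 18.6 in mdx, a log2 fold change of 1.83 (edgeR adjusted p = 0.00787, SE 0.42) and 1.21 without WT 1 and WT 3. Follistatin-like Fstl1 and the factors Igf1 and Metrnl rose by 1.81 (1.59), 1.07 (0.92) and 1.29 (1.55), whereas Hbegf, at 1.28 with all libraries, did not hold, at 0.91. The fall was that of Fndc5, whose product is cleaved to irisin, at -1.11 (-0.57). Myostatin (Mstn), which limits muscle mass, and midkine (Mdk) did not pass with all libraries, at -0.94 and 0.80. Without WT 1 and WT 3 they passed, at -1.80 and 2.90 (edgeR adjusted p = 0.000544 and 0.00015). Mstn stood at 2.12, 24.1, 2.79 and 18.2 CPM in WT 1 to 4 and 7.48, 4.45, 5.51 and 7.23 in mdx 1 to 4. Mdk stood at 2.99, 0.292, 2.26 and 0.368 CPM in WT and 2.45, 2.84, 1.73 and 3.08 in mdx. WT 1 and WT 3 lay below every mdx library for Mstn and among the mdx libraries for Mdk.

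Signalling genes came next. Of 25 genes of TGF-beta and BMP signalling, 9 rose, 5 of them held, and none fell; 4 fell without WT 2 and 1 without WT 1 or WT 4. They include fibrillin 1, Fbn1, which stores TGF-beta in the matrix, at 1.24 (1.78), the receptor Tgfbr2, at 1.12 (0.75), and Nrros, which holds latent TGF-beta on myeloid cells, at 1.195 (1.71). The median of 0.66 was 0.25 without WT 1 and WT 3. Of 18 Wnt genes, 3 rose and 6 fell, and 2 and 4 held; 8 rose without WT 2, and the median of 0.084 changed sign to -0.25 without WT 1 and WT 3. The secreted Wnt antagonist Frzb had the largest change among them, from 5.84, 18.4, 12.9 and 10.7 CPM in WT 1 to 4 to 1.54, 1.17, 1.14 and 1.53 in mdx 1 to 4, a log2 fold change of -3.15 (-3.46), edgeR adjusted p = 0.000112, SE 0.35. The receptor Fzd9, Dkk3 and the target gene Axin2 fell, at -1.55 (-0.72), -1.21 (-1.39) and -0.71 (-0.88). Of 24 immediate-early genes, 4 rose, of which 2 held, and 1 fell, which held. Rises numbered 2 without WT 3, mdx 1, mdx 3 or mdx 4, and 2 fell without WT 2 or WT 4. Myc rose by 1.197 (0.90) and the flow-responsive endothelial factor Klf2 fell, at -1.19 (-0.83).

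Genes of energy metabolism gave mostly falls, and many of these did not hold. Of 31 genes of mitochondrial translation 19 fell and none rose, and 7 falls held; the falls numbered 11 without WT 3, mdx 1 or mdx 4 and 12 without mdx 3, and 1 rose without WT 2. Mrpl12, of the large mitochondrial ribosomal subunit, stood at 302, 119, 346 and 151 CPM in WT 1 to 4 and 86.2, 68.2, 90.3 and 87.5 in mdx 1 to 4, a log2 fold change of -1.46 (-0.73). WT 1 and WT 3 were well above WT 2 and WT 4, which were themselves above all mdx libraries. Mrps11 had the same order, with -1.31 (-0.51). Of 29 genes around the citric acid cycle 13 fell, of which 5 held, and none rose; 5 fell without WT 3 or mdx 4, 6 without mdx 3, 7 without mdx 1, 8 without mdx 2, and 4 rose without WT 2. Sdhb, a subunit of succinate dehydrogenase, fell, at -1.07 (-0.49), Suclg1, a subunit of succinyl-CoA ligase, at -0.72 (-0.62) and fumarase, Fh1, at -0.48 (-0.49). The median of the list was -0.40 (-0.30) and turned to 0.024 under library totals. Citrate synthase, Cs, passed with all libraries at -0.48 and not without WT 1 and WT 3, at -0.37.

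Breakdown of branched-chain amino acids showed 8 falls and no rise among 20 genes, and 2 falls held, with a median of -0.16 that turned to 0.24 under library totals. Falls numbered 1 without WT 3 or mdx 4, 2 without mdx 1 or mdx 3 and 3 without WT 1 or mdx 2, and 5 genes rose without WT 2. Pcca, a subunit of propionyl-CoA carboxylase, fell, at -0.63 (-0.68) with 44.2, 47.2, 52.3 and 50.9 CPM in WT and 33.5, 30.1, 28.8 and 32.7 in mdx. Bckdhb, of the branched-chain dehydrogenase, was called at -0.38 (-0.35), a call that ended without WT 3 or any mdx library. Bckdha, the other subunit of that enzyme, was called at -1.39 with all libraries, where WT stood at 612, 179.6, 652 and 189.7 CPM and mdx at 165, 162, 151 and 143. Its change of -0.28 without WT 1 and WT 3 did not pass.

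Among 30 genes of glycogen and sugar phosphates 10 fell and 2 rose, and 3 and 1 held; falls numbered 4 without mdx 4, 5 without WT 3 and 6 without WT 1 or mdx 1, and rises 5 without WT 2 and 1 without WT 1, mdx 3 or mdx 4. The median of -0.048 turned to 0.33 under library totals. Ppp1r1a, an inhibitor of protein phosphatase 1, the enzyme that activates glycogen synthase, stood at 59.4, 43.8, 106 and 51.4 CPM in WT 1 to 4 and 1.89, 1.85, 2.39 and 1.96 in mdx 1 to 4. The groups were far apart, and the log2 fold change of -5.003 (edgeR adjusted p = 4.30e-06, SE 0.31) was -4.58 without WT 1 and WT 3. The gluconeogenic enzyme Fbp2 fell, at -2.44 (-2.31) and the regulator of glycolysis Pfkfb1 at -0.82 (-0.76). Hexokinase 3 (Hk3), an isoform of leukocytes, rose by 1.43 (2.04). The muscle enzymes of glycogen, Pygm and Gys1, passed with all libraries at -1.03 and -0.95. With WT 1 and WT 3 dropped they did not, at -0.34 and -0.29 (edgeR adjusted p = 0.235 and 0.281).

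Of 37 genes of lipid handling and sterols, 14 fell, 13 of them held, and 11 rose, 7 of them held; 7 rose without mdx 3. Plin5, which ties lipid droplets to mitochondria, stood at 46.3, 56.5, 107 and 52.8 CPM in WT and 10.6, 11.4, 10.2 and 10.8 in mdx, a log2 fold change of -2.61 (-2.37), edgeR adjusted p = 7.52e-05, SE 0.27. The highest mdx library was well below the lowest WT library, and WT 3 stood above the other WT libraries. The fatty acid carrier Fabp3, at 456, 482, 697 and 419 CPM in WT and 114, 123, 106 and 122 in mdx, fell, at -2.14 (-1.98), Dgat2, which makes triglyceride, at -2.07 (-1.65), and the lipases Pnpla2, Lipe and Lpl at -1.46 (-0.59), -1.59 (-0.93) and -0.94 (-1.17). Lcat, which esterifies cholesterol in plasma and is made mainly by liver, fell, at -2.16 (-1.84), beside the fall of the liver genes given above. Plin2, which coats lipid droplets in most cells, rose by 0.53 (0.61). Soat1, which esterifies cholesterol in cells, rose by 1.98 (2.06), the exporters Abca1 and Abcg1 by 1.80 (1.22) and 1.38 (1.58) and the carrier Fabp5 by 1.16 (1.11). The median of the list, -0.19, turned to 0.18 under library totals.

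Of 17 polyamine genes, 3 rose and 4 fell, and 2 and 4 held. Sat1, which acetylates polyamines for export, rose by 1.21 (0.97) with 11.3, 15.1, 9.60 and 13.7 CPM in WT and 24.1, 29.4, 30.2 and 31.1 in mdx, and spermine oxidase (Smox) fell, at -0.99 (-0.86). Arg1 fell, at -1.78 (-1.64) from 7.17, 5.64, 6.07 and 5.01 CPM in WT to 0.903, 1.27, 2.61 and 2.14 in mdx; it is also a liver gene and moved beside the other liver genes. In serine, one-carbon and nucleotide metabolism 5 of 22 rose and 8 fell, and 4 and 3 held, with 3 falls without each single library but WT 2 and WT 4. Rrm2, the subunit of ribonucleotide reductase that dividing cells need, stood at 0.479, 1.46, 1.085 and 0.888 CPM in WT and 7.02, 7.41, 7.76 and 9.02 in mdx, a log2 fold change of 2.99 (2.71), edgeR adjusted p = 8.77e-05, SE 0.32. The AMP deaminase of blood cells and immature muscle, Ampd3, rose by 1.79 (1.51), whereas that of adult muscle, Ampd1, had -0.37 with all libraries and did not hold, at -0.35. Ass1, of the urea cycle and also a liver gene, fell, at -1.39 (-1.21). Of 23 genes of creatine and NAD 2 rose and 5 fell, and 1 and 2 held. Rises numbered 4 without WT 2 and 1 without WT 3 or any mdx library, and 3 fell without mdx 4. Gatm, which makes the precursor of creatine, rose by 1.90 (1.67) and the mitochondrial creatine kinase Ckmt2 fell, at -0.72 (-0.80).

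Superoxide is made by the NADPH oxidase of phagocytes and cleared by antioxidant enzymes. Of 36 genes, 15 rose, 11 of them held, and 7 fell, 3 of them held, with 2 falls without mdx 3, 3 without WT 1, WT 3, mdx 1 or mdx 4 and 4 without mdx 2. The oxidase subunits Cybb, Ncf1 and Ncf4 rose by 2.41 (2.38), 1.98 (2.03) and 1.76 (2.26). Metallothionein Mt2 stood at 7.51, 11.1, 9.23 and 8.11 CPM in WT and 52.3, 26.7, 139 and 60.1 in mdx, highest in mdx 3, with a log2 fold change of 2.95 (2.83), edgeR adjusted p = 0.00316, SE 0.57. The peroxiredoxin Prdx6 and the glutathione transferase Gsta4, which both clear oxidised molecules, fell, at -0.57 (-0.31) and -1.38 (-0.77). Clock genes changed in few cases, with 1 rise and 3 falls among 18, all of which held, though 5 rose and 6 fell without WT 2. Nr1d1, a repressor of the clock, fell, at -1.78 (-0.69) with 725, 157, 576 and 229.6 CPM in WT and 119, 118, 127 and 124 in mdx, where WT 1 and WT 3 were far above the others.

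Chaperones help proteins to fold. Of 32 tested, 14 fell, 9 of them held, and 7 rose, 5 of them held; falls numbered 8 without mdx 1, mdx 2 or mdx 4 and 9 without WT 3. Hspb6, a small heat shock protein of muscle, stood at 2715, 1769, 3805 and 2087 CPM in WT 1 to 4 and 987, 848, 1095 and 1017 in mdx 1 to 4, a log2 fold change of -1.39 (-0.99), edgeR adjusted p = 0.003, SE 0.26. Cryab, which guards desmin and the Z-disc, fell, at -1.23 (-0.72), the myosin chaperone Unc45b at -0.74 (-0.76), Hsph1 at -1.004 (-1.47), Hspa8 at -0.66 (-0.75) and mitochondrial Hspe1 at -0.85 (-1.06). Ckap4, a membrane protein of the endoplasmic reticulum, rose by 2.05 (1.83), Pdia3 and Pdia4 by 1.27 (0.87) and 1.103 (0.83), Hsp90b1 by 0.80 (0.46) and Hspa2 by 1.23 (1.01). The median of the whole list, -0.27, turned to 0.14 under library totals. Serpinh1, the chaperone of collagen, rose by 1.32 (1.15).

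Of 22 calpains and protease inhibitors 12 rose and 2 fell, and 9 and 1 held. Capn3, the calpain of mature sarcomeres, stood at 144, 134, 171 and 163 CPM in WT 1 to 4 and 56.3, 61.2, 52.4 and 60.6 in mdx 1 to 4. WT 1 and WT 3 lay with the other WT libraries here, the groups were well apart and the log2 fold change was the same in both fits, -1.41 (SE 0.14, edgeR adjusted p = 4.74e-05) and -1.40. Capn6, a calpain of embryonic muscle, rose by 3.15 (2.68) with 0.913, 2.77, 0.877 and 1.09 CPM in WT and 15.0, 7.98, 10.2 and 17.1 in mdx, and ubiquitous Capn2 rose by 0.44 (0.32). Serpinb1a, an inhibitor of leukocyte elastase, rose by 3.19 (2.77) and Serpina3n by 2.12 (2.01). Serpinb6a, a further inhibitor, stood at 204, 229.9, 242 and 259 CPM in WT and 605, 621, 629 and 602 in mdx, a log2 fold change of 1.40 (1.304). Ubiquitin ligases and autophagy genes showed 7 falls and 3 rises among 32, and 2 and 1 held; falls numbered 3 without mdx 4, and rises 8 without WT 2 and 1 without WT 1, WT 3, mdx 1, mdx 2 or mdx 4. The main atrophy ligases Fbxo32 and Trim63 did not pass, at 0.21 (0.050) and 0.26 (0.28). Asb2, a ligase that targets filamins, fell, at -1.95 (-1.07) with 1981, 636, 2019 and 805 CPM in WT and 317, 367, 375 and 344 in mdx.

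Proteases cut and remodel the matrix between fibres. Of 20 tested matrix proteases and activators 15 rose, 13 of them held, and 1 fell, which did not hold; 2 fell without WT 2, and without mdx 3 or mdx 4 that fall was absent. Under 1 FPKM in WT were 10 of those tested, of which 9 rose. Mmp12, the elastase of macrophages (ENSMUSG00000049723, chromosome 9 from 7344381 to 7369499), stood at 1.71, 2.15, 1.38 and 0.904 CPM in WT 1 to 4 and 32.2, 26.8, 47.8 and 35.5 in mdx 1 to 4, a log2 fold change of 4.54 (edgeR adjusted p = 1.54e-05, SE 0.35) and 4.52 without WT 1 and WT 3. Mmp3, stromelysin, rose by 3.23 (3.10) with 10.1, 9.02, 30.6 and 15.3 CPM in mdx, highest in mdx 3, against 2.08, 2.39, 1.11 and 1.36 in WT. The groups did not overlap in either gene. Mmp14, which activates Mmp2 at the cell surface, and Mmp2 rose by 2.06 (2.36) and 1.55 (1.98), the fibroblast protease Fap by 1.75 (1.56) and the myeloid protease Adam8 by 2.75 (3.23). Plasminogen activator Plau and its receptor Plaur rose by 1.81 (1.35) and 1.68 (1.81).

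Of 31 crosslinking and matricellular genes 16 rose, 13 of them held, and 1 fell and held, P4ha2 at -0.62 (-0.54). Postn, periostin, stood at 9.98, 10.7, 9.35 and 8.17 CPM in WT and 109, 107, 65.2 and 121 in mdx, lowest in mdx 3 of the mdx libraries and still several times WT, a log2 fold change of 3.40 (3.39), edgeR adjusted p = 8.80e-06, SE 0.23. Cilp, of the fibroblast matrix, stood at 22.0, 49.7, 27.3 and 40.1 CPM in WT and 194, 223, 158 and 172 in mdx and rose by 2.43 (2.03). Cthrc1, of activated fibroblasts, rose by 2.78 (2.04) at low levels of 3.03, 2.12, 2.23 and 3.18 CPM in mdx. Tenascin C (Tnc), fibronectin (Fn1) and thrombospondin 4 (Thbs4) rose by 2.02 (1.51), 1.56 (1.82) and 1.22 (0.77). The crosslinking oxidases Loxl1 and Loxl2 rose in both fits, by 0.93 (1.73) and 1.72 (1.75), while Lox itself, at 2.01 with all libraries, did not hold, at 1.2997.

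Of 32 proteoglycans, laminins and other basement membrane genes 15 rose and 3 fell, and 11 and 0 held; rises numbered 9 without mdx 1, and falls 1 without WT 1, WT 3, mdx 1, mdx 3 or mdx 4. Lumican (Lum), which spaces collagen fibrils, stood at 8.13, 30.9, 6.46 and 12.8 CPM in WT and 120.3, 92.1, 93.5 and 106 in mdx, a log2 fold change of 2.82 (2.22), edgeR adjusted p = 0.000825, SE 0.44. The nidogens Nid1 and Nid2, which join laminin to collagen IV, rose by 1.83 (1.37) and 1.92 (1.69). Biglycan (Bgn) rose by 1.31 (1.60), and decorin (Dcn), at 1.47, did not hold, at 0.85. Lama2, the laminin chain that the dystrophin complex binds, rose by 0.63 (0.83), and Lamb2 fell by 1.52 with all libraries only, at 876, 156, 682 and 253 CPM in WT and 166, 200.5, 166 and 151 in mdx. Of 12 genes of the tendon junction 3 rose, of which 2 held, and 1 fell, which did not and was absent without WT 1, WT 4, mdx 1, mdx 2 or mdx 3.

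Lysosomal enzymes break down what macrophages and fibres take in or turn over. Of 32 lysosomal genes tested, 23 rose, 21 of them held, and none fell, though 1 fell without WT 2. The 33 listed genes took 0.319%, 0.342%, 0.347% and 0.334% of the counts in WT 1 to 4 and 0.616%, 0.617%, 0.694% and 0.622% in mdx 1 to 4. On TMM-scaled CPM the difference was smaller. The sums were 4586, 3589, 4963.5 and 3507 in WT and 5648, 5709, 6132 and 5521.5 in mdx. Lgals3, a galectin of macrophages, stood at 12.9, 17.1, 11.6 and 11.3 CPM in WT and 112, 118, 160.0 and 113 in mdx, a log2 fold change of 3.25 (3.13), edgeR adjusted p = 9.81e-06, SE 0.23. Cathepsin S, Ctss, of antigen-presenting cells, stood at 20.4, 22.2, 15.3 and 14.4 CPM in WT and 125, 128, 134 and 134 in mdx and rose by 2.86 (2.81). In both genes the groups were far apart. Cathepsin B (Ctsb), which most cells make, rose by 1.15 (1.17), legumain (Lgmn) by 2.37 (2.0002) and the macrophage proton pump subunit Atp6v0d2 by 3.24 (3.15). The membrane protein Lamp1 rose by 0.39 with all libraries and did not hold, at 0.23.

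Genes of macrophages that take up lipid rose in 17 of 22 cases and fell in 2, and all of these held. In WT 9 of the tested members averaged under 1 FPKM, and all of those rose. The falls were of Lpl and Syngr1, which muscle and other cells express as well. Itgax, an integrin of tissue macrophages and dendritic cells, stood at 1.51, 1.29, 0.716 and 0.653 CPM in WT and 13.9, 14.6, 15.0 and 14.8 in mdx, a log2 fold change of 3.81 (3.89), edgeR adjusted p = 3.14e-05, SE 0.34. Trem2, a lipid receptor of macrophages, rose by 3.05 (3.19) and osteopontin (Spp1) by 2.50 (2.47), with 12.3, 13.3, 10.5 and 9.66 CPM in WT and 43.3, 51.1, 109 and 54.2 in mdx. Mdx 3 was the highest mdx library for Spp1. Of 16 genes of resident macrophages 6 rose and none fell, 4 of the rises held, and 1 fell without WT 4; 8 of those tested averaged under 1 FPKM in WT, and 4 of these rose. The mannose receptor Mrc1 rose by 2.21 (1.62), with 4.54, 14.5, 3.001 and 7.27 CPM in WT and 31.4, 28.7, 43.7 and 31.3 in mdx, and Folr2 by 1.88 (1.996). Of 28 Toll-like, Fc and related receptors 14 passed the filter, 10 of them with under 1 FPKM in WT, so that these had to be higher elsewhere. Each of the 14 rose and held, 4 of them from at least 1 FPKM in WT. They are led by Clec7a, the receptor for fungal glucans, with 3.32 (3.25), and the inhibitory receptor Fcgr2b, with 2.71 (2.67).

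Macrophage genes that rose were searched for GAGGAAGT on both strands, the letters of a PU.1-type site of the myeloid lineage. Of 30 genes of the lipid and receptor lists that held as higher, 23 had a window, and 3 of these (13.04%) held the pattern, against 2.79% of all gene symbols. They were Fcgr4, Mmp12 and Spp1. CAGCTG was held by 4 of the 23 (17.4%). The windows of Mmp12 (chr9:7344147-7344396, plus strand, match 88 bases before the start) and Spp1 (chr5:104434861-104435110, plus strand, match at 113) are shown as those of the macrophage genes described above; each gene has 2 windows and the 1 with the match is given, with GAGGAAGT or its reverse complement in capitals.
Mmp12: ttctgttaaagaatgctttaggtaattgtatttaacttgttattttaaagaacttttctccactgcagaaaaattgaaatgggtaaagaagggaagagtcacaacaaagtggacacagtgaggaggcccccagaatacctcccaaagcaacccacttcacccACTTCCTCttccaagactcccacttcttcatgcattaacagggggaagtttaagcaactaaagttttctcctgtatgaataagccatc
Spp1: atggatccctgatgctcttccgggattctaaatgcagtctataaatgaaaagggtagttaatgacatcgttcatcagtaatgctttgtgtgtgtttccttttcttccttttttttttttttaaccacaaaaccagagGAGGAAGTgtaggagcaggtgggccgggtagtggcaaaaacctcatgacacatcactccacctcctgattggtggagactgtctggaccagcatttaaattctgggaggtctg

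Of 30 chemokines and receptors listed, 20 were tested, 13 rose, of which 9 held, and none fell. Those under 1 FPKM in WT numbered 9, of which 7 rose. Ccr2, by which monocytes enter tissue, stood at 0.662, 1.87, 0.785 and 0.335 CPM in WT and 14.8, 14.2, 18.2 and 14.3 in mdx, a log2 fold change of 4.07 (edgeR adjusted p = 0.000866, SE 0.63) and 3.79 without WT 1 and WT 3. Its ligand Ccl2 rose by 2.20 (2.32), and the chemokines Ccl8, Ccl9 and Ccl6 by 2.57 (2.37), 2.49 (2.20) and 2.55 (2.13). The mdx 3 library had the most of Ccl2, Ccl6, Ccl8 and Ccl9, with 25.2, 26.8, 52.7 and 27.6 CPM of Ccl6 in mdx 1 to 4. Few genes of other leukocytes passed the filter on low values. Of 26 T cell genes 1 passed the filter, Thy1, which fibroblasts express too, and its change of 0.32 did not pass, though it passed without WT 1 and WT 3, at 0.63, and without WT 1. Of 18 B cell genes 3 passed the filter, and Xbp1, also of secreting cells, rose by 0.49 and did not hold, at 0.37; 1 fell without WT 2 or WT 4. Of 30 genes of NK, mast and dendritic cells and eosinophils 6 passed the filter and 2 rose, of which 1 held, against 4 without WT 1 and 5 without WT 1 and WT 3. Ccl22, of dendritic cells and macrophages, had 4, 11, 4 and 0 counts in WT and 105, 183, 183 and 133 in mdx and rose by 4.47 (4.44).

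**Figure D4:**
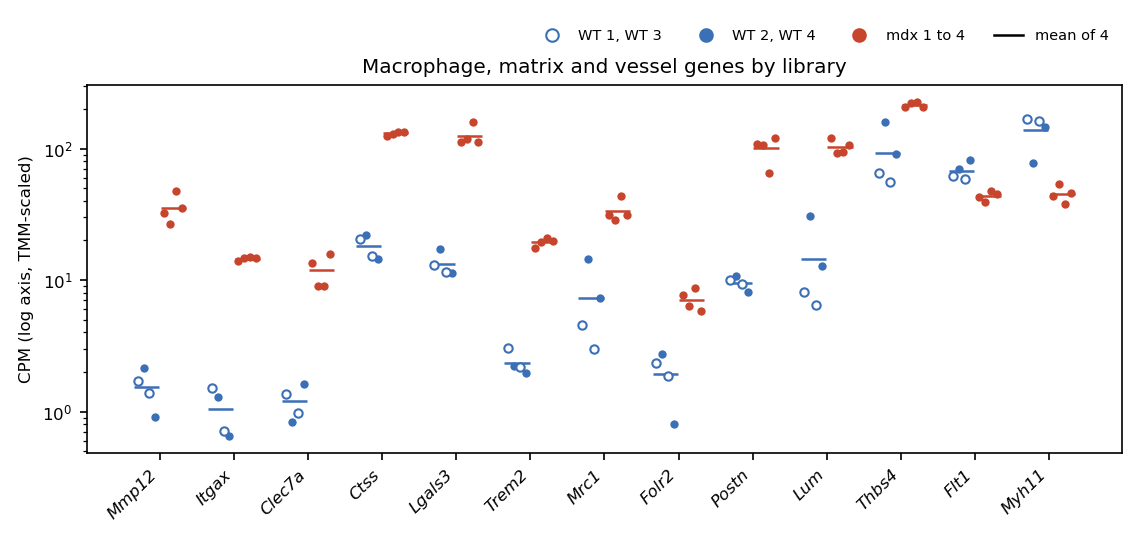
TMM-scaled CPM (log axis) of 13 genes of macrophages, matrix and vessels in each library, with open blue points for WT 1 and WT 3, filled blue points for WT 2 and WT 4, red points for mdx 1 to 4 and bars for the mean of 4. From Mmp12 to Thbs4 the mdx points lie above all WT points, and in Flt1 and Myh11 they lie below all of them.

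Of 37 cell cycle genes listed, 20 were tested, 12 of them under 1 FPKM in WT. Of those tested 13 rose, 9 of them from under 1 FPKM, 9 held, and none fell; rises numbered 8 without WT 3, mdx 1, mdx 3 or mdx 4, and 1 fell without mdx 3. Cdkn2a, whose products arrest cells and mark senescence, stood at 0.411, 0.636, 0.323 and 0.402 CPM in WT and 10.7, 19.3, 11.8 and 10.9 in mdx, with mdx 2 above the other mdx libraries and a log2 fold change of 4.88 (4.64), edgeR adjusted p = 3.81e-06, SE 0.29. Cdkn1a, the p53 target p21, rose by 1.62 (1.63) with 17.8, 19.2, 20.8 and 16.98 CPM in WT and 51.7, 51.7, 55.8 and 69.4 in mdx. Cyclin B2 (Ccnb2), of mitosis, rose by 1.74 (1.90) at low levels of 2.01, 1.33, 1.47 and 2.06 CPM in mdx, and the replication helicase genes Mcm3, Mcm4 and Mcm5 by 1.03 (0.96), 1.23 (0.87) and 0.83 (0.99).

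Tested genes of vessels, nerve and fat gave falls that mostly did not hold, and single endothelial, smooth muscle and fat cell genes rose without WT 2. Of 17 endothelial genes 7 fell with all libraries, and 1 held, Flt1 at -0.63 (-0.81) with 61.3, 69.6, 59.2 and 81.3 CPM in WT and 43.1, 39.0, 47.7 and 45.5 in mdx. Of 14 smooth muscle and pericyte genes 6 fell and 3 held, with -1.61 (-1.34) for smooth muscle myosin, Myh11, and -1.27 (-0.82) for Lmod1. Of 10 Schwann cell genes 4 fell and 1 rose, and 1 fall held; 2 fell without WT 1, mdx 2, mdx 3 or mdx 4, and the rise was absent without WT 1, WT 3, mdx 1, mdx 3 or mdx 4. Of 6 fat cell genes 3 fell and 1 held, the lipase Lipe, and 1 fell without WT 3, mdx 1, mdx 2 or mdx 4. Summed over the 12 listed fat cell genes, however, unscaled CPM were higher in mdx. They were 767, 1461, 757 and 1176 in WT 1 to 4 and 2004, 1892, 1654 and 1683 in mdx 1 to 4. TMM-scaled sums were 1104, 1536, 1085 and 1235 in WT and 1838, 1751, 1462 and 1495 in mdx, so WT 2 overlapped mdx. Of 6 red cell genes, 5 fell with mdx 1 left out and did not pass with all libraries. The hemoglobin gene Hba-a1 stood at 404, 193, 441 and 211 CPM in WT and 428, 169.5, 158 and 106 in mdx. Of 39 tested liver genes 33 fell, 22 of them held, and 21 fell without mdx 1. Mup3 had 32.2, 22.0, 33.6 and 23.7 CPM in WT and 0.243, 0.462, 2.34 and 2.68 in mdx, with mdx 3 and mdx 4 well above mdx 1 and mdx 2. Of the lung genes 4 were tested, 3 rose and 1, Cyp2f2 at -1.48 (-1.095), fell, and all of these held, with Scgb1a1 at 4, 0, 4 and 13 counts in WT and 379, 289, 406 and 471 in mdx, and its log2 fold change was 5.69 (5.54). No gene of the keratinocyte list passed the filter, and of the heart list 1 did, Sbk2, which did not pass the test, at -0.36 (0.18).

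**Figure D5:**
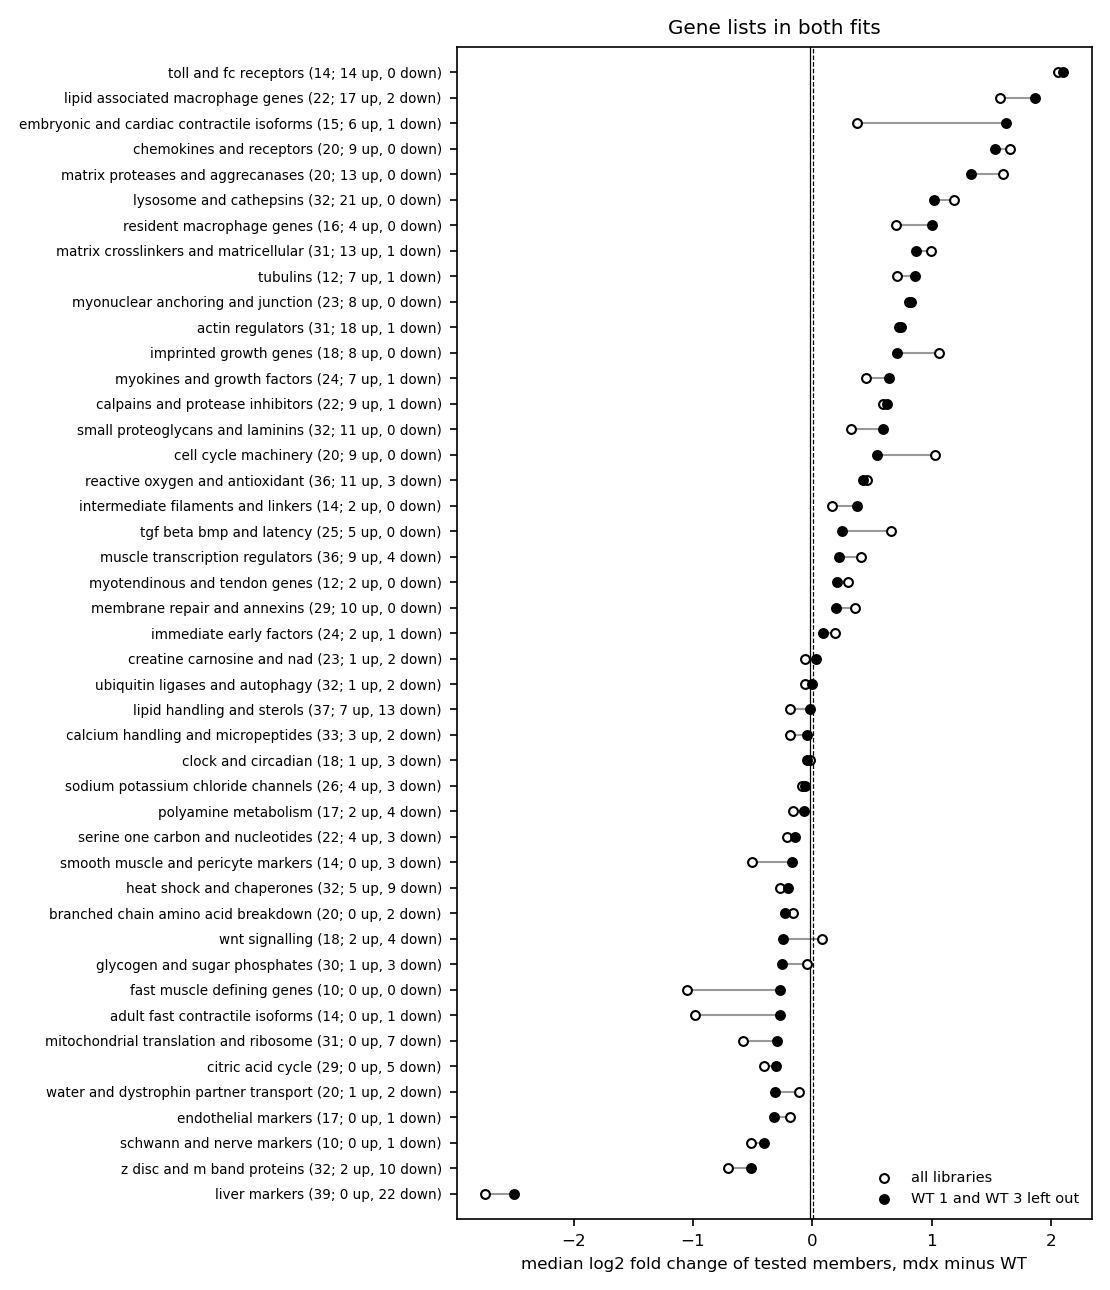
Median log2 fold change of the tested members of each list with at least 10 of them, with all libraries (open points) and with WT 1 and WT 3 left out (filled points), with the number tested and the held calls up and down beside each name; the solid and dashed lines are the medians of all tested genes without and with WT 1 and WT 3. Lists with many members under 1 FPKM in WT lie high in part through the filter, so their order is a description only; under library totals alone the medians of the lists for calcium, channels, transport, ubiquitin ligases, chaperones, citric acid cycle, branched-chain amino acids, glycogen, polyamines, one-carbon, creatine, lipid, clock and endothelial genes turned positive.

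Over all genes, the 12 largest rises by fold among those called in the same direction in the 4 fits of the stricter count, averaging 5 FPKM or more in 1 of the groups and with groups that did not overlap, joined several of these groups. They were the myoblast fusion gene Mymk at 6.59 (8.13), the lung gene Scgb1a1, the noncoding Gm48395 at 5.22 (5.41), Cdkn2a, the secreted C1qtnf3 at 4.62 (4.30), the protease inhibitor Timp1 at 4.43 (4.34), Myog, Ankrd1, the small GTPase Rrad at 3.91 (3.86), Myl4, Sln and Myh3. Rrad stood at 2.81, 4.00, 3.14 and 2.16 CPM in WT and 25.5, 22.3, 89.5 and 44.3 in mdx, again highest in mdx 3. C1qtnf3, of connective tissue, stood at 0.479, 1.12, 0.577 and 0.569 CPM in WT and 15.98, 13.9, 13.2 and 24.6 in mdx.

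The 12 largest falls by the same rule were BC048679 at -6.94 (-5.93), Ppp1r1a, Myl3, 1700001O22Rik at -4.41 (-4.06), Mup3 at -4.28 (-4.02), Odf3l2 at -4.24 (-4.39), Mup20 at -4.08 (-3.84), 0610040J01Rik at -4.04 (-4.02), Serpina1e at -4.03 (-3.53), Dusp26 at -3.95 (-3.26), Serpina3k at -3.60 (-3.29) and Mup17 at -3.56 (-3.29). Of these, Mup3, Mup20, Mup17, Serpina1e and Serpina3k belong to the liver list, and the call of Mup17 ended without WT 3, mdx 1 or mdx 2 and that of Serpina3k without mdx 2. Dusp26, a phosphatase, stood at 203, 67.2, 154 and 87.0 CPM in WT and 7.56, 7.29, 9.38 and 8.65 in mdx, with no overlap.

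Among genes of the stricter count and ranked by the gain in mean CPM rather than by fold, collagen III led. Col3a1 went from 121, 217, 64.9 and 105 CPM in WT 1 to 4 to 1438, 1058, 1289 and 1379.5 in mdx 1 to 4, a log2 fold change of 3.35 (2.99). It was followed by H19, the translation factor Eef1a1 at 1.3003 (1.104), Actc1, Ctsb, Col1a2 at 1.90 (1.96), Col1a1 at 1.90 (2.31), the macrophage lysozyme Lyz2 at 2.67 (2.76), Rtn4 and Vim. Eef1a1, the embryonic and non-muscle form of the elongation factor, stood at 381, 556, 364 and 399.8 CPM in WT and 1105, 959, 1029 and 1082 in mdx. Rtn4 rose by 1.03 (0.51), and its call ended without WT 1 or WT 3. The largest losses in mean CPM among genes of the stricter count were of Mb, the oxygen store myoglobin, at -1.72 (-0.93), the pseudogene Gm29216 at -0.97 (-0.81), Nrap, Myh2, the ATP synthase subunit Atp5b at -0.76 (-0.38), mt-Nd6 at -0.84 (-0.61), Hspb6, the phosphatase Ptp4a3 at -1.43 (-0.57), Ldb3 and the ATP carrier Slc25a4 at -0.50 (-0.52). Myoglobin stood at 8713, 3692, 9848 and 3609 CPM in WT and 2242, 1654, 1909 and 2021 in mdx, and WT 1 and WT 3 were well above WT 2 and WT 4, which were themselves above every mdx library. Reads of a pseudogene such as Gm29216 may be shared with the gene it copies. For mt-Nd6, the mitochondrial share of counts given above differed widely among WT libraries and overlapped between the groups.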

How the data were processed

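Poly(A) RNA of tibialis anterior muscle was sequenced from 4 mdx and 4 WT libraries, beside 4 DMD-Null libraries. The latter enter the model, the filter and the 12-library average. Per the labels' protocols, RNA had an RNA integrity number above 7 and libraries were stranded. HISAT2 2.0, StringTie 1.3.4, cutadapt 1.10 and FastQC 0.10.1 were used, per the submitters' processing notes. The counter and its use of strand are not given in the sources used here, so overlapping genes cannot be told apart. The authors deposited raw counts per gene, and FPKM values beside them, in 1 table. Those notes name GRCm39, but 99.70% of genes shared a start or end with the GRCm38 annotation, and positions are read as GRCm38.

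Counts as deposited were tested with edgeR 4.0.16 (quasi-likelihood, TMM scaling, R 4.3.3) in 1 model over all 12 libraries, with Benjamini-Hochberg adjustment and a threshold of 0.05. Genes that reached 1 FPKM in 4 or more libraries were tested, and 18863 of 30239 were not. CPM are counts over the library total and the TMM factor. GC offsets came from a loess curve (span 0.5). The fits were tested on simulated data. Alternatives were other scalings, filters, DESeq2 1.42.0, a replicate block, the 8 libraries alone, and libraries left out. Whether replicate numbers pair the samples is not known. Correlations of the deviations of same-numbered mdx and WT libraries across genes ran from -0.427 to 0.333. They cannot decide the question, because the deviations of the WT libraries carry the split among them described above. The members and lists were chosen with earlier results of these data known. Genes named by rule were Dmd, up to 2 held calls with the largest change in each list (or the tested member with the highest FPKM), and the largest changes over all genes by fold and by CPM. Others are examples chosen after their values were seen. Some genes are not reported here.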

Additional observations from a re-analysis of the deposited data

Results flagged for a closer look

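Single libraries stood apart from the other 3 of their group in 16 of 274 groups of 4, where about 1 in 20 groups does so by chance. Of the 16, 5 fell in mdx 3 and 3 in WT 2.

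In mdx 3, the sarcomere gene Ankrd1 (290.3 CPM), the tubulin Tuba1b (167 CPM), the galectin Lgals3 (160.0 CPM) and the monocyte receptor Ccr2 (18.2 CPM) were higher than in the other mdx libraries, and the sarcomere gene Nrap (1020.3 CPM) was lower. In mdx 2, the cell cycle inhibitor Cdkn2a was higher at 19.3 CPM and the Fc receptor Fcgr2b lower at 18.2 CPM. Bmp5 was higher in mdx 1 at 25.5 CPM, and the ATP carrier Slc25a4 lower in mdx 4 at 2865 CPM.

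Among WT libraries, WT 2 was highest for Vim (186 CPM), Capn6 (2.77 CPM) and C1qtnf3 (1.12 CPM). WT 3 was highest for Plin5 (107 CPM) and BC048679 (39.0 CPM). WT 1 was highest for Ccnb2 (0.731 CPM) and for the ratio of Tnni1 to Tnni2 FPKM (0.000556).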

How the results depend on the processing

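Against 4001 calls with all libraries, there were 2649 without WT 1 and WT 3 (1241 lower), 8790 without WT 2 and WT 4 (4499 higher, 4291 lower), 2268 from the 8 libraries alone (1123 higher, 1145 lower) and 1701 at a mean FPKM of at least 5 (712 higher, 989 lower), where fewer genes were tested and 858 calls held. Library totals gave 3350 higher and 707 lower. Leaving out 1 library gave 2300 (without mdx 4) to 6874 (without WT 2) calls, 1112 to 3390 higher, 1175 to 3484 lower and 1749 to 1912 held calls. Dmd was -1.23 in DESeq2, -1.96 without WT 1 and WT 3, 0.37 without WT 2 and WT 4 and -1.51 to -0.63 without 1 library. Other scalings, GC offsets, DESeq2 and no filter kept the number of calls within 1.5 times of 4001, and no gene was called in the opposite direction in any setting. The cause of these shifts was not tested.

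With the replicate block, 2377 genes were called, 1155 of them lower, but whether replicate numbers pair the samples is not known.

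Changes of sign were sought in the genes named by rule and in summed levels whose shares of counts did not overlap between groups. Besides Dmd, under library totals Bckdhb (0.0496) and Sbk2 (0.14) changed sign. Without WT 1 and WT 3, Hba-a1 (0.0621) and Sbk2 (0.18) did. On TMM-scaled CPM in place of shares of counts, the summed embryonic and cardiac contractile genes (-0.0678) and ubiquitin ligases (-0.38) did. So did antioxidant genes (-0.141) and TGF-beta genes (-0.015). A further 47 summed levels shifted by at least the pooled spread between libraries of a group, and 2 did not. Some summed levels with overlapping shares changed sign as well, among them tubulins and polyamine genes, and are not listed in full. Other genes given as examples changed sign where the bracketed value shows it. Calls of Sync, Bckdhb, Rtn4, Xbp1 and Slc25a4 ended with the 8 libraries alone. Under library totals, 7 genes named by rule kept their sign but lost their call, and 1 gained a call.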
